A study of Ovis aries with 9 samples.

Results

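The gonadal identity transcription factors are the DNA-binding regulators that set up the somatic cells of the gonad and hold them to their fate in the adult. The set was defined by name as FOXL2, NR5A2, NR5A1, NR0B1, GATA4, GATA6, WT1, LHX9, TCF21 and NR2F2. No expression value entered the definition, although earlier results of these data were known when the set was chosen. Of these 10 symbols, 8 have a row among the 27174 rows of the ovary count table, and 7 of those rows passed the expression filter that left 16871 rows for testing. FOXL2 and NR2F2 have no row under these symbols and were not analysed here. The WT1 row did not pass the filter, and a second row named WT1.1 is described beside it.

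RNA-Seq was performed on ovaries of 9 adult ewes, with 1 library per ewe and 3 ewes per group. The Dorset group (animals D4, D5 and D6, genotype label wild type) is a breed of lower fecundity. Han BB (W1, W2 and W4) are Small Tail Han ewes homozygous for the FecB mutation in the bone morphogenetic protein receptor gene BMPR1B, and Han ++ (W6, W7 and W8) are Small Tail Han ewes without it. All 9 ewes had been synchronized with progestagen sponges and pregnant mare serum gonadotropin, and whole ovaries carrying ovulation points were taken soon after the following spontaneous estrus. Han BB and Dorset differ in both breed and FecB genotype, which cannot be told apart in that comparison, while Han BB and Han ++ differ in genotype within 1 breed. The labels give no litter, day or batch, so the p values measure only the spread between these animals.

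In the embryo, GATA4, WT1, LHX9 and NR5A1 act in the bipotential genital ridge before it becomes an ovary or a testis. In the adult ovary, NR5A1 and NR5A2 switch on the genes of steroid synthesis in theca, granulosa and luteal cells, NR0B1 restrains them, and GATA4 and GATA6 act with them on the same promoters. WT1, TCF21 and NR2F2 are known from the surface epithelium, the immature follicle and the stroma, and FOXL2 keeps granulosa cells from turning towards a Sertoli-like fate.

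The libraries held 10803913 to 20992535 counted reads. Libraries W4 and D6 stood apart from the other 7: the rank correlation between them over tested genes was 0.978, while neither exceeded 0.955 with any other library. W4 and D6 belong to different groups, and the larger moves in a value when both were left out are given beside that value. In library D4 a single locus took 14.9% of the reads, against at most 7.69% in the other 8. Summed markers of granulosa, theca and luteal cells were present in every library. Oocyte markers, 6 of 8 tested, summed to 8.10 to 23.7 CPM, and BMP15, DAZL and NOBOX were at 0 in at least 1 library. The common biological coefficient of variation was 0.472 over all tested genes. Values are given as CPM, the reads of a row after scaling every library to 1 common total with TMM factors. CPM are not divided by transcript length, so levels were compared between libraries for 1 gene and never between genes.

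No factor passed the test in any comparison. With edgeR's quasi-likelihood F-test and p values adjusted by Benjamini-Hochberg, 0 of 7 factors passed an adjusted p of 0.05 and a 1.5-fold change in Han BB against Dorset, where 0% of tested genes passed. The counts were 0 of 7 in Han ++ against Dorset (0.00593% of tested genes) and 0 of 7 in Han BB against Han ++ (0% of tested genes). The test for any difference among the 3 groups called 0 of 7 factors and 0% of genes. At an unadjusted p under 0.05 in edgeR, 0 of 7 factors passed in each of the 3 pairwise comparisons, and 4.99%, 5.27% and 1.97% of tested genes did. DESeq2 called 0 of 7 in each comparison, with 0.243%, 0.404% and 0.0081% of its tested genes called. limma voom also called 0 of 7 in each, with 0%, 0% and 0.0119% of genes called. The groups did not overlap in CPM for 1 of 7 factors in Han BB against Dorset (8.79% of tested genes), 1 of 7 in Han ++ against Dorset (11.1%) and 0 of 7 in Han BB against Han ++ (9.38%). That 1 factor was TCF21, higher in Dorset in both comparisons, which share the Dorset libraries. A count of 1 of 7 is close to these shares of all tested genes.

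**Figure D1:**
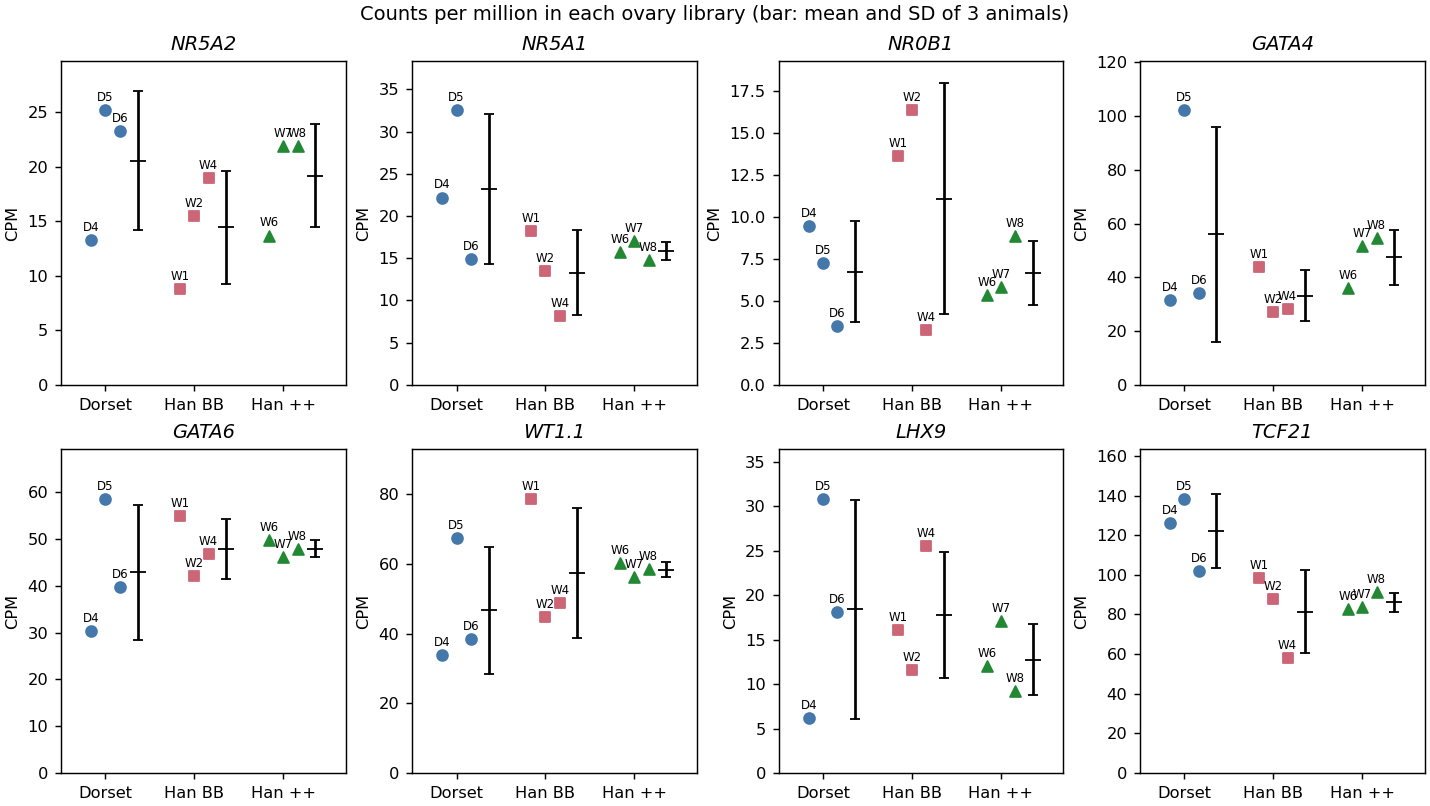
Each panel plots the CPM of 1 row (y axis, starting at 0) in the 9 ovary libraries, grouped on the x axis as Dorset, Han BB and Han ++, with the mean and SD of 3 animals as a bar beside the points. The Dorset points for TCF21 (102 to 139 CPM) lie above all 6 Han points (57.9 to 98.4 CPM), and in every other panel the groups overlap.

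NR5A2, also called LRH-1, is an orphan nuclear receptor of granulosa and luteal cells that is needed for ovulation and luteinization. Its level was 13.2, 25.2 and 23.3 CPM in D4, D5 and D6. In Han BB it was 8.83, 15.5 and 19.0 CPM in W1, W2 and W4, and in Han ++ it was 13.7, 21.9 and 21.9 CPM in W6, W7 and W8. Each group held 1 library well below its other members, and the ranges of the 3 groups overlapped. Group means were 20.6 ± 6.41, 14.4 ± 5.16 and 19.2 ± 4.74 CPM (SD, n = 3 each) for Dorset, Han BB and Han ++. Against Dorset, the log2 fold change was -0.51 (SE 0.37, 95% interval -1.33 to 0.30) for Han BB and -0.10 (SE 0.37, interval -0.92 to 0.71) for Han ++. The Han BB against Dorset value was -0.69 without W4 and D6, and -0.99 in limma voom (limma adjusted p = 0.38). With 1 library left out it ran from -0.79 (without W4) to -0.27 (without W1). Between the Han genotypes the log2 fold change was -0.41 (SE 0.37, interval -1.23 to 0.41), and -0.67 without W4 and D6. The counts behind these values were 136 to 558 reads per library. A row named NR5A2.1 held 64 reads over all 9 libraries, of which 27 were in W2.

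NR5A1, or steroidogenic factor 1, is the master regulator of steroid-producing cells in the gonad and the adrenal. It stood at 22.2, 32.5 and 14.9 CPM in D4, D5 and D6, at 18.2, 13.5 and 8.16 CPM in W1, W2 and W4, and at 15.7, 17.1 and 14.8 CPM in W6, W7 and W8. D4 and D5 were above every Han library, D6 lay among them, and W4 was the lowest of all 9. The means were 23.2 ± 8.86 CPM in Dorset, 13.3 ± 5.03 in Han BB and 15.9 ± 1.12 in Han ++ (SD, n = 3). Relative to Dorset the log2 fold change was -0.80 (SE 0.37, 95% interval -1.61 to 0.00, edgeR adjusted p = 0.975) for Han BB. For Han ++ it was -0.55 (SE 0.36, interval -1.35 to 0.26, edgeR adjusted p = 1).

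The NR5A1 values depended on which libraries were present. Without D5, the Han BB against Dorset value was -0.47 and the Han ++ against Dorset value -0.22. The Han BB against Dorset value was -1.11 without W1 and -0.57 without W4. With W4 and D6 left out, both comparisons gave about the same size, -0.80 (edgeR adjusted p = 0.642) for Han BB and -0.79 (adjusted p = 0.433) for Han ++. Summed markers of theca cells, where NR5A1 is active, ranged from 174 to 256 CPM in Dorset, 107 to 158 among Han BB ewes and 96.5 to 188 among Han ++ ewes. All 7 of these markers were tested, none was called and none was at 0 in any library. Dorset did not overlap with Han BB in this sum and did overlap with Han ++. PTCH1, with 8853 reads over all libraries, was its largest part. In Han BB against Dorset the log2 fold change was -1.26 for CYP17A1, -0.56 for INSL3 and 0.31 for LHCGR. The granulosa sum (901 to 1052 against 544 to 1050 CPM) and the luteal sum (351 to 1837 against 403 to 1796 CPM) overlapped between Dorset and Han BB. The part of theca, granulosa or luteal cells in the NR5A1 values was not tested. In whole ovary, fewer cells of a type and less RNA per cell cannot be told apart.

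NR0B1, or DAX1, is an atypical nuclear receptor without a DNA-binding domain of the usual kind that binds NR5A1 and NR5A2 and represses them. Its reads numbered 49 to 287 per library, the fewest of the 7 tested factors in total. The level was 9.44, 7.26 and 3.52 CPM in D4, D5 and D6, and 5.34, 5.84 and 8.84 CPM in W6, W7 and W8. In Han BB it was 13.6, 16.3 and 3.28 CPM in W1, W2 and W4. W1 and W2 were above the other 7 libraries, while W4 was the lowest of all and D6 the next lowest. This split within Han BB gave the widest relative spread of any group and factor apart from GATA4 and LHX9 in Dorset, 11.1 ± 6.89 CPM (SD, n = 3).

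For NR0B1 the log2 fold change was 0.74 (SE 0.56, 95% interval -0.49 to 1.96, edgeR adjusted p = 0.999) in Han BB against Han ++ and 0.72 (SE 0.56, interval -0.51 to 1.95, edgeR adjusted p = 0.996) in Han BB against Dorset. Han ++ and Dorset had means of 6.67 ± 1.89 and 6.74 ± 2.99 CPM (SD, n = 3), a log2 difference of -0.01 (SE 0.56) that was -0.33 without W4 and D6. Leaving out W4 raised the Han BB values to 1.17 against Han ++ and 1.15 against Dorset. Leaving out W2 lowered them to 0.36 and 0.35. Without both W4 and D6 the difference from Han ++ was 1.17 (edgeR adjusted p = 0.993), and with a term for these libraries in the fit it was 1.04 (adjusted p = 0.996). NR0B1 had the highest biological coefficient of variation of the 7 factors, 0.490, and 69.1% of tested genes had a lower one.

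GATA4 is a zinc finger factor of granulosa, theca and Sertoli cells that works with its cofactor ZFPM2. In Dorset it was 31.6, 102 and 34.4 CPM in D4, D5 and D6. The Han BB libraries gave 44.0, 27.2 and 28.2 CPM (W1, W2, W4) and the Han ++ libraries 35.9, 51.7 and 54.6 CPM (W6, W7, W8). D5 stood alone with 2266 reads, and the other 8 libraries ranged from 27.2 to 54.6 CPM. The Dorset mean of 56.0 ± 39.9 CPM (SD, n = 3) therefore had an SD close to its own size. Han BB averaged 33.1 ± 9.42 CPM and Han ++ 47.4 ± 10.1 CPM.

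GATA4 had a log2 fold change of -0.76 (SE 0.44, 95% interval -1.74 to 0.22) for Han BB against Dorset and -0.24 (SE 0.44, interval -1.22 to 0.73) for Han ++ against Dorset. Without D5 these values became 0.01 and 0.52, and without W4 and D6 they were -0.94 and -0.52. Neither direction was therefore stable to 1 animal. Han BB against Han ++ gave -0.52 (SE 0.44, interval -1.49 to 0.46), and leaving out any 1 library kept it between -0.78 and -0.38.

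GATA6 is the second GATA factor of granulosa and theca cells, partly interchangeable with GATA4. Its level was 30.3, 58.6 and 39.7 CPM in D4, D5 and D6, 54.8, 42.0 and 46.9 CPM in W1, W2 and W4, and 49.8, 46.1 and 47.9 CPM in W6, W7 and W8. Dorset held both the lowest and the highest library, and the Han ++ animals lay close together. The Han groups had the same mean, 47.9 ± 6.46 CPM in Han BB and 47.9 ± 1.86 in Han ++ (SD, n = 3), against 42.9 ± 14.5 in Dorset. The log2 fold change between the Han genotypes was 0.00 (SE 0.28). Its 95% interval covered ratios from 0.652 to 1.54, so these 3 animals per group did not exclude a difference of about 1.5-fold in either direction. Against Dorset the value was 0.16 (SE 0.28, interval -0.46 to 0.78) for each Han group, and it was -0.04 for each without D4. Of the 7 factors GATA6 had the smallest ratio of highest to lowest library, 1.94.

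WT1, the Wilms tumour factor, is a zinc finger regulator of the genital ridge, the surface epithelium and the granulosa cells of small follicles. The count table has both a WT1 row and a WT1.1 row. WT1 held 28 reads in all, between 0 and 10 per library. D4 and W8 had none, and a count of 0 allows up to 0.292 and 0.276 CPM there. WT1.1 held 8708 reads, 348 to 1660 per library. Of 1568 rows with the suffix 1 after a point, 1566 have a plain partner. Where the pair had at least 100 reads (1160 pairs), the rows differed at least 10-fold in 1132, and the suffixed row was the higher in 584. No source used here says what the suffix stands for. WT1.1 is therefore reported under its own row name and is not counted among the 7 tested factors.

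WT1.1 was at 33.9, 67.5 and 38.6 CPM in D4, D5 and D6, at 78.8, 44.7 and 48.8 CPM in W1, W2 and W4, and at 60.4, 56.3 and 58.6 CPM in W6, W7 and W8. W1 was the highest and D4 the lowest, and those of Han ++ again differed little. Means were 46.6 ± 18.2, 57.4 ± 18.6 and 58.4 ± 2.05 CPM for Dorset, Han BB and Han ++ (SD, n = 3). The log2 fold change was 0.30 (SE 0.33, 95% interval -0.42 to 1.02) in Han BB and 0.32 (SE 0.33, interval -0.40 to 1.04) in Han ++, each against Dorset. It was -0.02 (SE 0.33, interval -0.74 to 0.69) between the Han genotypes. Summed markers of the surface epithelium, where WT1 is expressed, were 170 to 357 CPM in Dorset, 261 to 392 among Han BB ewes and 355 to 434 among Han ++ ewes. All 9 of these markers were tested and none was called, and LGR5 was at 0 in at least 1 library. The keratin genes KRT8, KRT19, KRT18 and KRT7, with 15694, 13006, 6920 and 4159 reads over all libraries, made up most of this sum. UPK1B held 7129 reads, MSLN 1299 and UPK3B 96. The part of surface epithelium in the WT1.1 values was not tested.

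LHX9 is a LIM homeodomain factor of the genital ridge that acts with WT1 upstream of NR5A1. It was 6.23, 30.9 and 18.1 CPM in D4, D5 and D6, spanning the whole range of the series within Dorset. Han BB libraries had 16.1, 11.6 and 25.5 CPM (W1, W2, W4) and Han ++ libraries 11.98, 17.1 and 9.21 CPM (W6, W7, W8). All Han values fell between those of D4 and D5. Means were 18.4 ± 12.3, 17.7 ± 7.07 and 12.7 ± 3.98 CPM (SD, n = 3). The log2 fold changes were -0.06 (SE 0.51) for Han BB and -0.53 (SE 0.51) for Han ++ against Dorset, and 0.47 (SE 0.52) for Han BB against Han ++. The value for Han BB against Dorset ran from -0.47 without D4 to 0.54 without D5, and that for Han ++ from -0.94 to 0.05 with the same libraries left out. Without W4 and D6, the value for Han BB was -0.46 against Dorset and 0.11 against Han ++.

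TCF21 is a basic helix-loop-helix factor of mesenchyme that marks stromal and interstitial progenitors of the gonad. Its level was 126, 139 and 102 CPM in D4, D5 and D6. In Han BB it was 98.4, 87.9 and 57.9 CPM in W1, W2 and W4, and in Han ++ 82.9, 84.0 and 91.6 CPM in W6, W7 and W8. All 3 Dorset libraries were above all 6 Han libraries, although D6 was above W1 by only a few CPM. The means were 122 ± 18.7 CPM in Dorset, 81.4 ± 21.0 in Han BB and 86.1 ± 4.73 in Han ++ (SD, n = 3). TCF21 had the smallest biological coefficient of variation of the 7 factors, 0.271, and only 8.93% of tested genes had a lower one.

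For TCF21 the log2 fold change was -0.59 (SE 0.27, 95% interval -1.19 to 0.01, edgeR adjusted p = 0.975) for Han BB against Dorset. It was -0.50 (SE 0.27, interval -1.10 to 0.09, edgeR adjusted p = 1) for Han ++ against Dorset. Leaving out each library in turn gave -0.74 to -0.41 for the first and -0.62 to -0.40 for the second. Without W4 and D6 they were -0.52 (edgeR adjusted p = 0.689) and -0.62 (adjusted p = 0.447), and with a term for these libraries -0.61 (adjusted p = 0.289) and -0.67 (adjusted p = 0.172). Between the Han genotypes the value was -0.08 (SE 0.27, interval -0.68 to 0.52).

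Among the marker lists, the stromal and fibroblast sum did not follow the TCF21 order: it was 9429 to 21200 CPM in Dorset, 11120 to 15870 among Han BB ewes and 16140 to 20880 among Han ++ ewes. All 9 stromal markers were tested, none was called and none was at 0. The collagen genes COL3A1, COL1A2 and COL1A1, with 728765, 582002 and 551673 reads over all libraries, made up most of this sum. The theca sum given above ran the same way as TCF21, with 174 to 256 CPM in Dorset and 107 to 158 in Han BB. It overlapped between Dorset and Han ++ (96.5 to 188 CPM). The sum of 8 tested ciliated epithelium markers was lowest in Dorset and did not overlap between any groups. It was 135 to 184 CPM in Dorset, 202 to 267 among Han BB ewes and 292 to 387 among Han ++ ewes. None of these 8 was called and none was at 0. TPPP3, with 17623 reads over all libraries, was the largest part of the ciliated sum. The 5 oviduct secretory markers, all tested, summed to 383 to 728 CPM in Dorset, below the 860 to 1129 CPM of Han BB and the 788 to 1857 CPM of Han ++. This sum was almost all OVGP1, which held 148384 reads over all libraries, against 1301 for PAX8, the next of the 5. None of the 5 was called or at 0, and the part of theca, ciliated or secretory tissue in the TCF21 values was not tested.

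**Figure D2:**
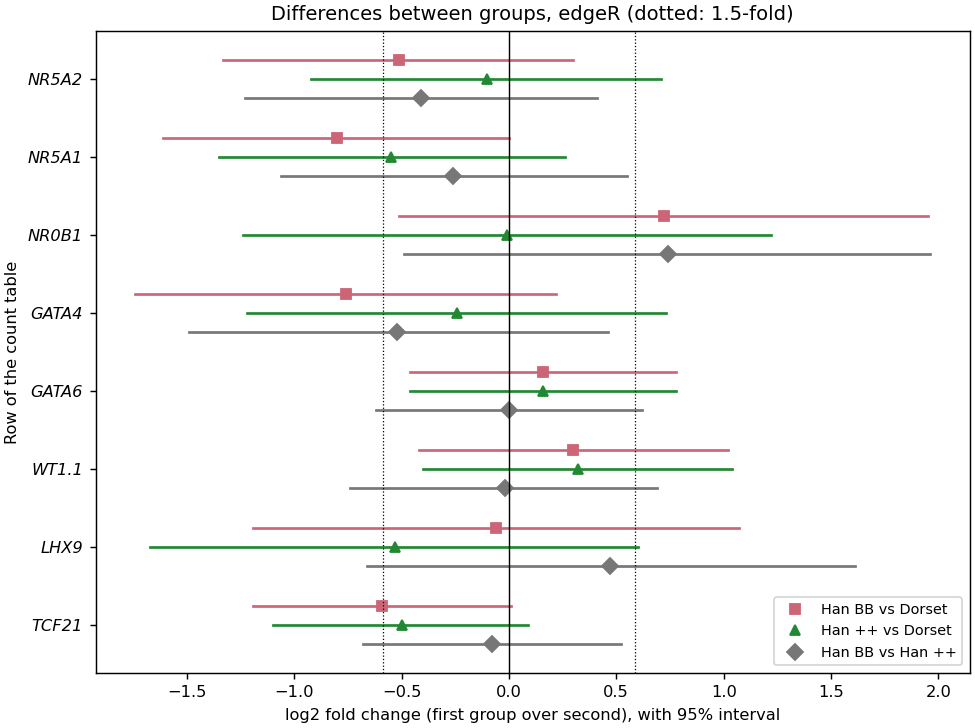
Log2 fold changes from edgeR (x axis) with 95% intervals for each row (y axis), with Han BB against Dorset as squares, Han ++ against Dorset as triangles and Han BB against Han ++ as diamonds, and dotted lines at a 1.5-fold change. Every interval includes 0, and those of NR5A1 (-1.61 to 0.00) and TCF21 (-1.19 to 0.01) in Han BB against Dorset reach it only at their upper end.

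Over the 7 tested factors and all 9 libraries, the log2 fold changes against Dorset were more often below 0 than above it. In Han BB, 5 of 7 were lower and 2 higher, with a median of -0.51 against a median of -0.01 over all tested genes. In Han ++, 6 of 7 were lower and 1 higher, with a median of -0.24 against -0.06 over all genes. Both comparisons use the same Dorset libraries, and D5 was the highest library for NR5A2, NR5A1, GATA4, GATA6, LHX9 and TCF21. Without D5 the tally turned: 4 of 7 were higher in Han BB, with a median of 0.01 against -0.03 over all genes. In Han ++ 5 of 7 were then higher, with a median of 0.05 against -0.09. Between Han BB and Han ++, 4 were lower and 3 higher, with a median of -0.08 against 0.04 over all genes, which became 4 higher and 3 lower with a median of 0.01 without W4. With WT1.1 counted as well, the medians were -0.29, -0.17 and -0.05 in the 3 comparisons.

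The factors differed in how much they varied between animals of a group. GATA6, WT1.1 and TCF21 had biological coefficients of variation of 0.277, 0.309 and 0.271, and NR5A1 and NR5A2 had 0.344 and 0.347. GATA4 at 0.396, LHX9 at 0.455 and NR0B1 at 0.490 varied most. For LHX9 and NR0B1 the highest library exceeded the lowest 4.96-fold and 4.98-fold.

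Pairs of factors were compared for how closely they varied together over the libraries. Correlations of log2 CPM were computed for 28 pairs of the 8 rows over the 7 libraries other than W4 and D6, and the smallest p that an exact permutation test can give over 7 libraries is 0.000397. By Pearson's r, 3 pairs had an unadjusted permutation p under 0.05, and 1 kept an adjusted p under 0.05. By Spearman's rho the lowest adjusted permutation p was 0.0778. These correlations were chosen after the data had been seen. All pairs share the same libraries and the same scaling, and D4 and D5 are the extreme libraries for several factors. The permutations took no account of group, and each group has too few libraries for a value of its own. A correlation can therefore reflect differences between groups as well as between animals.

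The pair with the closest relation was GATA6 and WT1.1, with Pearson's r of 0.96 (exact permutation p = 0.00139, Benjamini-Hochberg adjusted p = 0.0389). Spearman's rho was 0.96 (exact permutation p = 0.00278, adjusted p = 0.0778). The libraries farthest from the median of GATA6 were D4 and D5, and without them r was 0.99 over 5 libraries. Leaving out 1 library at a time gave r between 0.89 and 0.98, and with W4 and D6 included r was 0.93 over 9.

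NR5A1 and TCF21 had r of 0.91 (exact permutation p = 0.00694, adjusted p = 0.0972) and rho of 0.71 (exact permutation p = 0.0881, adjusted p = 0.613). Leaving out 1 library at a time gave r between 0.81 and 0.94, and r was 0.93 over all 9 libraries. Without D5 and D4, which are the whole Dorset group among these 7, r was 0.32 over the 5 Han libraries. Within these 7 the relation therefore rested on D4 and D5. The libraries left out did not divide by breed. W4 was the lowest of all 9 for both rows, and D6 lay among the Han libraries for NR5A1. GATA6 and LHX9 had r of 0.83 (exact permutation p = 0.0282, adjusted p = 0.263) and rho of 0.71 (exact permutation p = 0.0881, adjusted p = 0.613), with r of 0.30 without D4 and D5. NR5A1 and GATA4, partners on steroidogenic promoters, had r of 0.69 (exact permutation p = 0.0925, adjusted p = 0.431), and the lowest value with 1 library left out was 0.00.

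**Figure D3:**
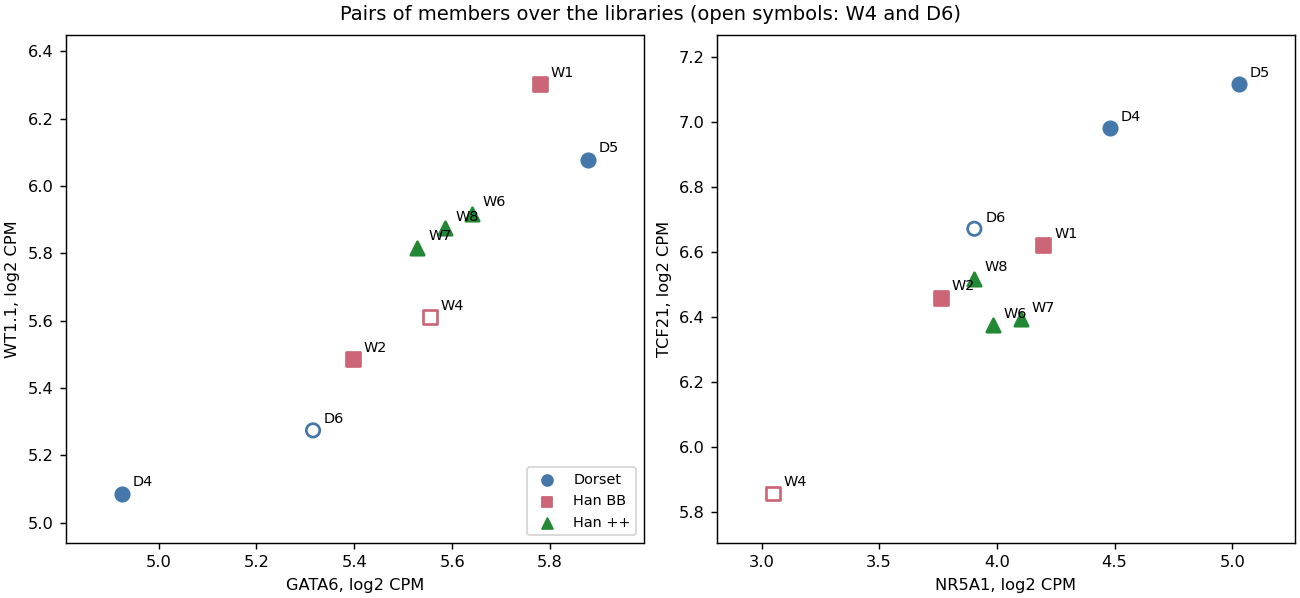
Log2 CPM of WT1.1 against GATA6 (left) and of TCF21 against NR5A1 (right), 1 point per library, coloured by group, with W4 and D6 as open symbols left out of the correlation. On the left the 7 filled points follow 1 line (r of 0.96), while on the right D4 and D5, the Dorset libraries among the 7, form the upper end of the relation (r of 0.91, and 0.32 without them). The open W4 point is the lowest on both axes of the right panel.

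The tested genes whose log2 CPM followed each factor most closely over the 9 libraries are given as a description with no test, since they were picked from 16871 genes for this correlation. For NR5A2 they were INHBA (Pearson's r 0.961), which encodes the activin and inhibin beta A subunit of granulosa cells, then HDLBP (0.938) and HIP1.1 (0.936). INHBA was 55.8, 167 and 166 CPM in Dorset, 15.5, 73.3 and 91.3 CPM in Han BB, and 28.1, 109 and 141 CPM in Han ++. As with NR5A2, the first-named library of each group (D4, W1 and W6) was its lowest. Over the 7 libraries without W4 and D6, r between NR5A2 and INHBA was 0.956.

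For NR0B1 the closest gene was HSD11K (r 0.981), a synonym of HSD11B2, which inactivates cortisol. HSD11K was 4.28, 2.34 and 1.17 CPM in Dorset, 5.17, 6.86 and 1.20 CPM in Han BB, and 2.48, 2.17 and 3.78 CPM in Han ++. W2 and W1 were again the highest and D6 and W4 the lowest. C3H12orf57 (0.966) and PAFAH1B3 (0.960) came next. NR5A1 was followed by ANGPT4 (0.971), an angiopoietin, and by OPLAH (0.969) and SEMA4C (0.968).

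For GATA4 the closest genes were CIZ1 (0.968), STOX2 (0.968) and ALPL (0.965). Those for GATA6 were KIAA0226 (0.976), C3AR1 (0.927) and SUSD3 (0.911). SUSD3 also led the list of WT1.1 (0.968), followed by DIS3L2 (0.930) and LOC101121375 (0.905), which the reference table names TMEM192. LHX9 was nearest to LOC101118308 (0.969), LOC101117543 (0.966) and STARD9 (0.956), and TCF21 to KIFC2 (0.979), C21H11orf84 (0.977) and WHSC2 (0.962). With the exception of SUSD3, no gene stood among the closest 3 of more than 1 factor.

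Genes that work with or under these factors were examined in 4 lists of 65 genes in all, of which 61 have a row and 56 were tested. In edgeR 0 of 56 passed in each pairwise comparison. At an unadjusted p under 0.05 there were 2 of 56 in Han BB against Dorset (both lower), 2 in Han ++ against Dorset (1 lower, 1 higher) and 1 in Han BB against Han ++ (lower), beside the 4.99%, 5.27% and 1.97% of all tested genes given above.

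The gene of these lists with the largest difference was NR4A1, an immediate early orphan receptor that is induced by gonadotropins and acts on the same steroidogenic promoters as NR5A1. It was 92.9, 125 and 37.9 CPM in D4, D5 and D6. In Han BB it was 9.21, 11.1 and 18.4 CPM (W1, W2, W4), and in Han ++ 6.58, 11.2 and 23.1 CPM (W6, W7, W8). Every Dorset library was above every Han library. The log2 fold change was -2.72 (SE 0.55, edgeR adjusted p = 0.749) in Han BB and -2.65 (SE 0.55, edgeR adjusted p = 0.379) in Han ++, each against Dorset. DESeq2 called it in both comparisons, with adjusted p = 0.00177 and 0.000775. Without W4 and D6 edgeR called it in Han ++ against Dorset (-3.03, adjusted p = 0.0407) and did not in Han BB against Dorset (-3.44, adjusted p = 0.153).

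Among the cofactors and partner factors, 21 of 23 listed genes were tested, and their median log2 fold change was -0.17, -0.01 and -0.13 in Han BB against Dorset, Han ++ against Dorset and Han BB against Han ++. Without D5 the medians against Dorset were 0.06 and 0.21. After NR4A1, SMAD3, which carries activin and TGF-beta signals to FOXL2 targets, had the lowest p in Han BB against Dorset, at 33.2 against 48.4 CPM (log2 fold change -0.54, SE 0.27). RUNX2, a runt factor of luteinizing granulosa cells, had a mean of 21.1 CPM in Han ++, 10.8 in Dorset and 12.9 in Han BB. Its log2 fold change was 0.96 (SE 0.38, edgeR adjusted p = 0.891) in Han ++ against Dorset and -0.70 (SE 0.38, edgeR adjusted p = 0.999) in Han BB against Han ++. All 3 Han ++ libraries were above the other 6, and the first value was 0.61 without D6. ESR2, the estrogen receptor of granulosa cells, was at 4.92 against 7.78 CPM in Han BB and Han ++ (-0.65, SE 0.46), and W8 alone was above 8.56 CPM.

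The early gonad and ovary pathway had 15 of 16 genes tested, with medians of -0.35, -0.32 and 0.01, the last of them -0.24 without W4. FST, the activin-binding follistatin that FOXL2 is known to control, had means of 52.6, 24.2 and 30.8 CPM in Dorset, Han BB and Han ++. The log2 fold change was -1.12 (SE 0.44, edgeR adjusted p = 0.975) in Han BB and -0.78 (SE 0.44, adjusted p = 1) in Han ++, and the groups overlapped in both. RSPO1, a WNT amplifier of ovary determination, was at 2.84 against 5.33 CPM in Han BB and Dorset (-0.91, SE 0.50), a value of -0.65 without W4 and D6 and -0.41 without D6 alone. IRX5, an Iroquois homeodomain factor, was at 2.34 against 3.42 CPM in Han BB and Han ++ (-0.54, SE 0.45).

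Of 10 genes of the testis pathway 6 were tested, all at low levels, with medians of -1.33, -0.52 and -0.56. Without D5 the medians against Dorset were -0.78 and -0.29. With all 9 libraries, none of the 6 was higher in Han BB than in Dorset, 1 was higher when D4 or W1 was left out, and none of them passed the test. SOX9, the Sertoli cell determinant that FOXL2 represses, had 8 to 74 reads per library and means of 2.21, 0.767 and 1.16 CPM in Dorset, Han BB and Han ++. Its log2 fold change was -1.54 (SE 0.77, edgeR adjusted p = 0.977) for Han BB and -0.95 (SE 0.75, edgeR adjusted p = 1) for Han ++ against Dorset. AMH, a product of Sertoli cells and of granulosa cells of small follicles, had 5 to 50 reads and means of 1.92, 0.710 and 1.82 CPM. Han BB lay below both other groups without overlap, by -1.41 (SE 0.69, edgeR adjusted p = 0.977) against Dorset and -1.33 (SE 0.69, edgeR adjusted p = 0.999) against Han ++, and the first was -2.09 without W1. FGF9 was at 1.52 against 2.21 CPM in Han BB and Han ++ (-0.54, SE 0.48), and SOX10 at 0.975 against 3.13 CPM in Han ++ and Dorset (-1.70, SE 0.85, and -0.87 without D5).

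The steroidogenic and gonadotropin targets had 14 of 16 genes tested, with medians of -0.41, -0.15 and -0.43. Leaving out 1 library moved the second to 0.04 (without D4) and the third to -0.03 (without W1). HSD17B1, which converts estrone to estradiol in granulosa cells, was 5.06, 10.9 and 1.56 CPM in Dorset, 3.37, 0.280 and 0.0669 CPM in Han BB, and 6.11, 4.12 and 8.93 CPM in Han ++. The Han BB libraries were all below those of Han ++, and W4 held 1 read. The log2 fold change was -2.31 (SE 1.04, edgeR adjusted p = 0.999) against Han ++ and -2.19 (SE 1.04, edgeR adjusted p = 0.975) against Dorset. With 1 library left out the first ran from -5.14 (without W1) to -1.76 (without W4), and the second from -5.04 (without W1) to -1.35 (without D5). INHBB, the inhibin beta B subunit, was at 7.49 against 17.4 CPM in Han BB and Dorset (-1.22, SE 0.65, and -0.60 without D5).

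LHCGR, the receptor for luteinizing hormone, was at 32.2 against 23.0 CPM in Han BB and Han ++ (0.49, SE 0.27), without overlap. FDX1, the electron donor of side-chain cleavage, was at 34.2 against 65.3 CPM in Han ++ and Dorset (-0.93, SE 0.49, and -0.68 without D6). HSD3B1, which forms progesterone, was at 26.2 against 47.4 CPM in the same groups (-0.85, SE 0.57), and its value was 0.24 without D4 and -1.26 without W4 and D6. Granulosa markers, all 10 tested, summed to 901 to 1052 CPM in Dorset, 544 to 1050 among Han BB ewes and 741 to 1125 among Han ++ ewes. SERPINE2 and CDH2, with 71368 and 24625 reads over all libraries, made up most of this sum. FSHR held 1509 reads and AMH 229. Luteal markers, 7 of 8 tested, summed to 351 to 1837, 403 to 1796 and 880 to 1547 CPM, a spread within each group that was wider than any difference between groups. No marker in either list was called, RLN3 was at 0 in at least 1 library, and the part of these cells in the target values was not tested.

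**Figure D4:**
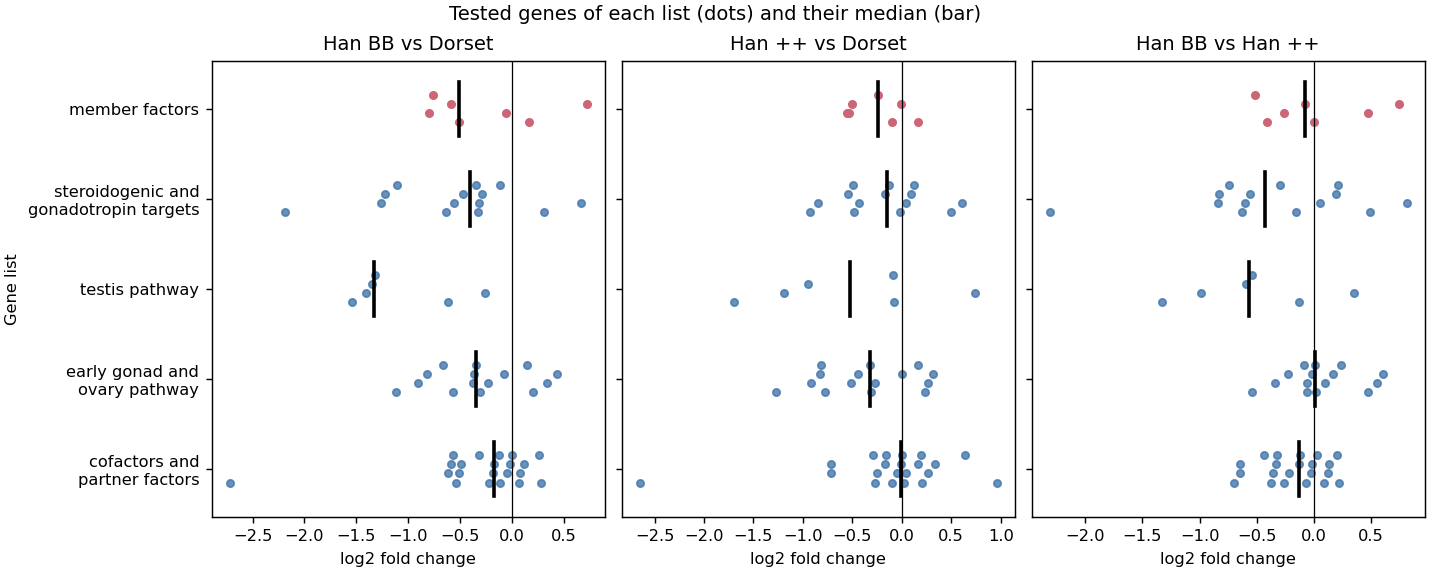
Log2 fold changes (x axis) of the tested genes of each list (y axis; 1 dot per gene, bar at the median) in the 3 pairwise comparisons, with the 7 factors in red on the top line. The factors centre on -0.51, -0.24 and -0.08, the testis pathway lies furthest left against Dorset in Han BB (median -1.33), and the isolated dot near -2.7 in the first and second panels is NR4A1.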

How the data were processed

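Ovary RNA from 9 ewes was sequenced on an Illumina HiSeq. The labels and the methods name different Illumina library kits. Per the labels, reads were aligned to Oar_v3.1 with TopHat. Only reads with a unique position were used, and the table the authors deposited holds unnormalized counts of reads for each gene in every library. How reads were assigned to genes, and whether strand was used, is not given in the sources read here, and reads of overlapping or antisense genes cannot be told apart.

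The analysis used edgeR 4.0.16 in R 4.3.3: filterByExpr by group, TMM factors, 1 quasi-likelihood fit of all 9 libraries, and Benjamini-Hochberg adjustment over 16871 tested rows. A gene was called where the adjusted p was under 0.05 and the ratio of groups was over 1.5 or under 0.667. Log2 CPM used a prior count of 2. Intervals at counts of 0 take 3 counts as the limit and cover counting error only. DESeq2 1.42.0, limma 3.58.1 voom with quality weights, other filters, 2-group fits, each library left out in turn, and a term for or removal of W4 and D6 were alternatives. Scripts were tested on simulated data. Figures used matplotlib 3.10.9 in Python 3.11.15.

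The factors and gene lists were chosen with earlier results of these data known. Named genes were all factors, in each list and comparison the 2 tested genes with the lowest p, and the 3 genes most correlated with each factor. One gene that this rule names is not reported here. Chosen after seeing the data were the exact permutation tests of pairs, the sum of suffixed and plain rows, and, for list genes, taking whichever of the plain and suffixed rows had most reads. CREB1, PTGDS, CYP26B1, PRLR, TEK and PIFO were not analysed here. Gene names were checked against the annotation table of another assembly, so no positions are given.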

Additional observations from a re-analysis of the deposited data

How the results depend on the processing

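The count of factors called was 0 under every alternative run, in each pairwise comparison and in the test among the 3 groups. Runs without the filter on low counts, and the run with summed rows, also held a WT1 row. Of 432 alternative values for the log2 fold changes of the 7 factors and WT1.1, 400 kept their direction and their side of the threshold and 32 changed sign, in 12 of 24 results. Outside the fits that left out 1 library, the changes of sign were NR5A2 in Han ++ against Dorset (0.05 with a term for W4 and D6), NR0B1 in the same comparison (0.00 with 2 groups only), and GATA6 in Han BB against Han ++ (-0.01 with the filter of 1 CPM in 3 libraries and with 2 groups only). In Han BB against Han ++, WT1.1 was at 0.10 in limma, 0.07 without W4 and D6 and 0.09 with the term. TCF21 was at 0.09, 0.11 and 0.06 under the same settings.

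With 1 library left out, values against Dorset ran from -0.34 to 0.07 for NR5A2 and -0.33 to 0.29 for NR0B1 in Han ++. For Han BB and Han ++ in turn, GATA4 ran from -1.04 to 0.01 and -0.53 to 0.52, GATA6 from -0.04 to 0.46 and -0.04 to 0.45, and LHX9 from -0.47 to 0.54 (0.17 without W2) and -0.94 to 0.05. WT1.1 ran from -0.01 to 0.67 in Han BB, and HSD3B1 from -1.27 to 0.24 in Han ++. In Han BB against Han ++ the ranges were -0.11 to 0.10 for GATA6, -0.33 to 0.14 for WT1.1 (0.02 without W6), -0.25 to 0.11 for TCF21 and -0.91 to 0.09 for ESR2.

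Of the genes in the network lists, NR4A1 alone was called under any alternative: the count was 1 with DESeq2 in Han BB against Dorset and 1 in Han ++ against Dorset, and 1 without W4 and D6 in Han ++ against Dorset, where edgeR on all libraries gave 0. The cause was not tested. The correlation of NR5A1 and TCF21 went from 0.91 to 0.71 as Spearman's rho and to 0.32 without D4 and D5, the Dorset libraries among the 7. It was 0.93 over all 9 libraries. Summing the WT1 and WT1.1 rows, and the NR5A2 and NR5A2.1 rows, changed no call. No paired analysis was possible because the labels name animals only and the replicate numbers follow accession order. With 3 animals per group, the printed intervals give the differences that these data did not exclude. Rows with few reads, such as WT1, were not tested in the main fit.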
